A study of Rattus norvegicus with 6 samples.

Results

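The GDNF family comprises 4 secreted ligands, the co-receptors that bind them and a shared receptor kinase, and its 9 genes were examined in cultured nerve and skin precursors of newborn rats. Members were Gdnf, Nrtn, Artn, Pspn, Ret, Gfra1, Gfra2, Gfra3 and Gfra4, chosen by name. Each was taken from the array's probe set annotated with that gene symbol alone. All 9 had exactly 1 such probe set, among 18166 genes measured in all. NSCPs (nerve-derived Schwann cell precursors, precursors of the glia of peripheral nerves) came from the sciatic nerve and SKPs (skin-derived precursors, sphere-forming cells of the dermis) from back skin of newborn wild-type Sprague-Dawley rats, 3 separate isolates per kind, each measured on its own array. NSCPs were kept on laminin (4 μg/ml) and poly-D-lysine (30 μg/ml) with neuregulin-1β (25 ng/ml), forskolin (5 μM) and N2 supplement (2%). For SKPs the labels give sphere culture at 50000 cells/ml with FGF2 (40 ng/ml), EGF (20 ng/ml) and, as the run-on protocol text was read, B27 (2%). No ligand of the GDNF family is named in either medium. Tissue, medium and growth form differ together between the groups and cannot be told apart.

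GDNF, neurturin, artemin and persephin (genes Gdnf, Nrtn, Artn and Pspn) are dimeric neurotrophic factors. Each binds by preference a co-receptor held in the membrane by a lipid anchor: GDNF the product of Gfra1, neurturin that of Gfra2, artemin that of Gfra3 and persephin that of Gfra4. The bound pair then engages RET, a receptor tyrosine kinase, or, for GDNF with the Gfra1 product, the adhesion molecule NCAM. In peripheral nerve the family is known for the support of motor, sensory and autonomic neurons, and Schwann cells are a known source of GDNF after injury. The series title concerns paracrine factors of these nerve-derived precursors in digit tip regeneration. The comparison asks which parts of the family the nerve and the skin cultures each express.

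NSCPs and SKPs differed in 3 of the 9 genes. The GDNF co-receptor gene Gfra1 was 9.44-fold higher in NSCPs, the artemin co-receptor gene Gfra3 was 4.60-fold lower, and Gdnf itself was 1.46-fold higher. Ret lay near the level of genes taken as silent in both cultures, and Gfra2 lay far above it in both. A gene is called higher or lower in NSCPs when limma's adjusted p over all genes was under 0.05. By that rule 43.7% of all genes were called, 25.2% higher and 18.6% lower. The family's 2 higher and 1 lower of 9 make up 33.3%, and 9 genes are too few to set that share apart from 43.7%. Differences that were called and at least 2-fold were found in 2 of the 9 genes, against 17.4% of all genes. The arrays of the 2 kinds did not overlap for 4 of the 9 genes, against 56.6% of all genes: NSCP arrays lay wholly above in 2 (34.4% of all genes) and wholly below in 2 (22.1% of all genes). The members' median difference (NSCPs minus SKPs) was -0.0016 on the log2 scale, and that of all genes was 0.14. Values are the deposited log2 expression values, which are comparable between arrays for 1 gene but not strictly between genes. No member's level is therefore ranked against another's, and placing a gene against the background level is a rough guide only.

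**Figure D1:**
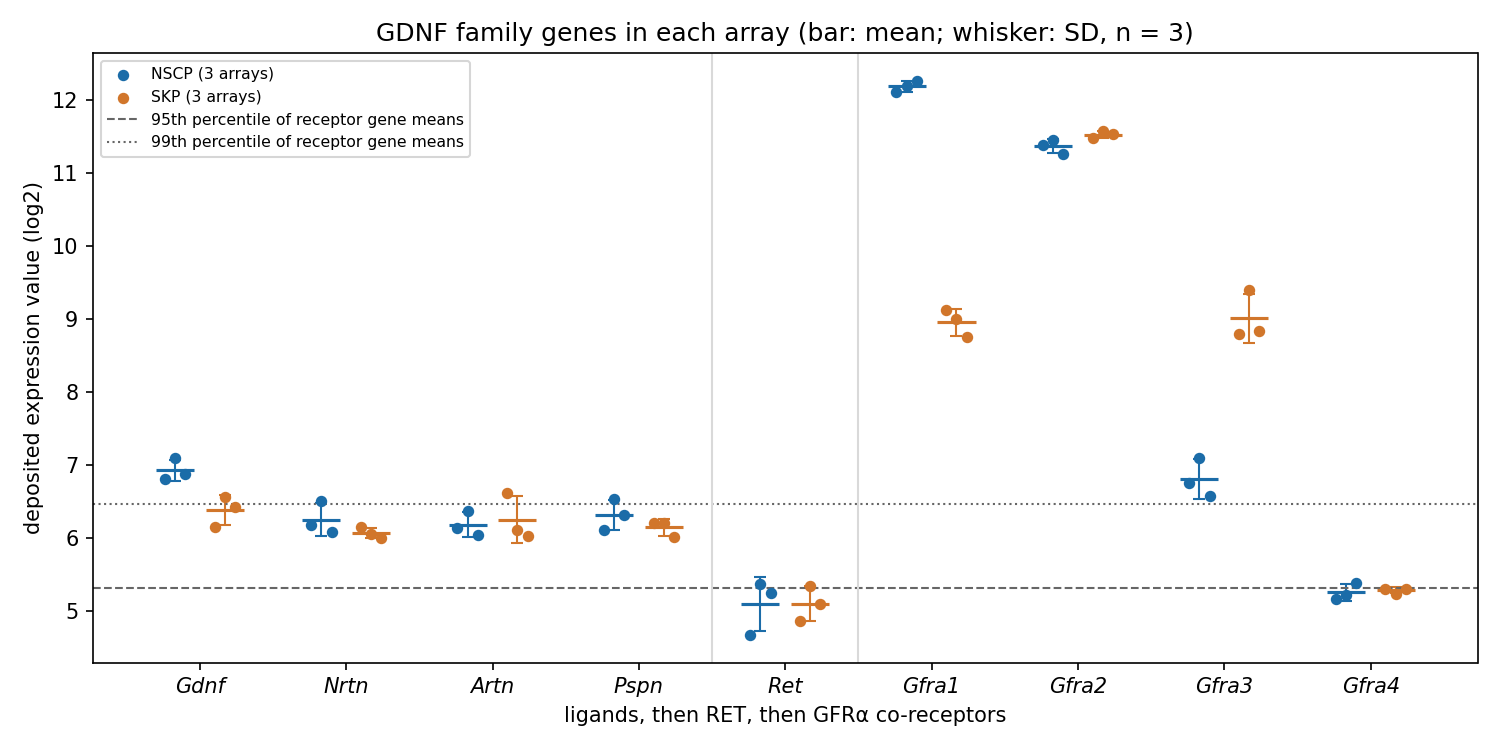
Deposited log2 expression value (vertical axis) of each of the 9 genes (horizontal axis, ligands, RET, co-receptors) in 3 NSCP and 3 SKP arrays; points are arrays, bars are means and whiskers SD, and the horizontal lines mark the 95th and 99th percentiles of receptor genes of smell and pheromone sensing. Gfra1 sits between 12.11 and 12.26 in NSCPs and between 8.75 and 9.12 in SKPs, and Gfra3 shows the opposite order. Ret and Gfra4 lie around the lower line. Heights of different genes are not strictly comparable, so the lines are a rough guide.

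To judge the dim members, a background level was taken from 227 olfactory and vomeronasal receptor genes, which serve in sensory neurons of the nose. The 95th percentile of their means was 5.32 and the 99th percentile 6.47 on the log2 scale. These levels come from probe sets of other genes, so they place a member only roughly. Above 5.32 lay 7 of the 9 members in NSCPs and 7 in SKPs, the exceptions being Ret and Gfra4 in both. Above the stricter 6.47 lay 4 members in NSCPs (Gdnf, Gfra1, Gfra2 and Gfra3) and 3 in SKPs (Gfra1, Gfra2 and Gfra3). Nrtn, Artn and Pspn lay between the 2 levels in both cultures. At the 90th percentile, 4.87, all 9 members lay above the level in NSCPs and in SKPs, Ret and Gfra4 included, so the placing of those 2 genes within background holds at 5.32 and not at 4.87.

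Among the ligands, Gdnf was the one that was called. In NSCPs its log2 values were 6.80, 7.09 and 6.88 in replicates 1, 2 and 3, and in SKPs they were 6.16, 6.56 and 6.43. All NSCP arrays lay above all SKP arrays, by a narrow margin between the lowest NSCP and the highest SKP array. NSCPs averaged 6.93 ± 0.15 and SKPs 6.38 ± 0.21 (SD, n = 3 each), a difference of 0.54 (SE 0.15, 95% interval 0.21 to 0.88, limma adjusted p = 0.0167). The call rested on SKP replicate 1, the lowest array: without it the difference was 0.43 and limma's adjusted p was 0.0576. The same array had the highest mean over 13 macrophage and leukocyte markers, at 10.59 against 9.52 and 9.85 in SKP replicates 2 and 3, and the part of those cells in the Gdnf value was not tested.

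Nrtn, whose product acts on parasympathetic and enteric neurons, had log2 values of 6.17, 6.51 and 6.08 in NSCPs and 6.15, 6.06 and 6.01 in SKPs. Artn, whose product acts on sympathetic and sensory neurons, had 6.14, 6.37 and 6.04 in NSCPs and 6.62, 6.10 and 6.03 in SKPs. Pspn had 6.11, 6.53 and 6.31 in NSCPs and 6.21, 6.21 and 6.02 in SKPs. For all 3 genes the arrays of the groups overlapped, and the differences did not pass. The difference was 0.18 for Nrtn (95% interval -0.14 to 0.51, limma adjusted p = 0.329). It was -0.07 for Artn (-0.48 to 0.34, limma adjusted p = 0.775) and 0.17 for Pspn (-0.16 to 0.50, limma adjusted p = 0.361). These intervals leave room for differences of up to about the size of that of Gdnf and not for one of the size of Gfra1 or Gfra3.

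Ret, the gene of the kinase through which all 4 ligands are known to signal, had log2 values of 4.67, 5.37 and 5.24 in NSCPs and 4.86, 5.34 and 5.10 in SKPs. The groups overlapped fully, and 2 of the 6 arrays, NSCP replicate 2 and SKP replicate 2, lay just above the background level of 5.32. The means were 5.09 ± 0.37 in NSCPs against 5.10 ± 0.24 in SKPs (SD over 3 arrays each). The difference was -0.0016 with a 95% interval from -0.47 to 0.47 (limma adjusted p = 0.996). Both means lay below 5.32 and above the 90th percentile of 4.87, so whether Ret was above background depends on the level chosen. An array value at background sets no expression to 0, and a transcript in few cells could be missed.

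Gfra1 had the largest difference of the family. Its log2 values were 12.11, 12.20 and 12.26 in NSCPs and 9.12, 8.996 and 8.75 in SKPs. The lowest NSCP array exceeded the highest SKP array by far more than the spread within either group, and the SKP values themselves lay well above background. NSCPs averaged 12.19 ± 0.08 and SKPs 8.95 ± 0.19 (SD, n = 3 each), a difference of 3.24 (SE 0.13, 95% interval 2.93 to 3.54, limma adjusted p = 3.48e-07). In absolute size this difference exceeded that of 97.3% of all genes. In cultures of mixed cells, a larger share of expressing cells and more RNA per cell cannot be told apart. Of 13 measured Schwann cell lineage markers 11 were higher in NSCPs, against 25.2% of all genes. The mean over the 13 markers was between 10.09 and 10.16 in NSCP arrays and between 6.85 and 7.09 in SKP arrays. Their part in the Gfra1 difference was not tested.

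Gfra2, the neurturin co-receptor gene, was well above background in both cultures. Its log2 values were 11.39, 11.46 and 11.27 in NSCPs and 11.48, 11.58 and 11.53 in SKPs. All NSCP arrays lay below all SKP arrays, but by little. The means were 11.37 ± 0.10 in NSCPs against 11.53 ± 0.05 in SKPs (SD over 3 arrays each). The difference of -0.16 did not pass (95% interval -0.42 to 0.10, limma adjusted p = 0.296). That interval holds no difference of the size found for Gfra1 or Gfra3.

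Gfra3 went the other way from Gfra1. Its log2 values were 6.75, 7.10 and 6.58 in NSCPs and 8.80, 9.40 and 8.84 in SKPs, with no overlap. NSCPs averaged 6.81 ± 0.27 and SKPs 9.01 ± 0.34 (SD, n = 3 each), a difference of -2.20 (SE 0.20, 95% interval -2.66 to -1.74, limma adjusted p = 3.89e-05). The NSCP mean was still above the 99th percentile of the receptor genes. Gfra3 is known from developing mouse nerve as a gene of Schwann cell precursors, and of the 13 Schwann cell lineage markers 11 had the reverse order. Of the other two, Gap43, a growth cone protein gene named here after its values were seen, was lower in NSCPs like Gfra3 (difference -0.69, limma adjusted p = 0.00447), and Fabp7 did not pass. Markers of dermal mesenchyme (12 of 12) and of macrophages and leukocytes (13 of 13) were lower in NSCPs as well, against 18.6% of all genes. Mean values of the mesenchyme list were between 6.46 and 6.80 in NSCP arrays and between 11.49 and 11.52 in SKP arrays. For the macrophage list they were between 5.02 and 5.18 in NSCP arrays and between 9.52 and 10.59 in SKP arrays. Within the SKP group, Gfra3 was highest in replicate 2. That array had the lowest macrophage mean and, by little, the highest mesenchyme mean (11.521 against 11.487 and 11.486 in replicates 1 and 3). The part of these cells in the Gfra3 difference was not tested.

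Gfra4, the persephin co-receptor gene, had log2 values of 5.16, 5.22 and 5.38 in NSCPs and 5.31, 5.23 and 5.31 in SKPs. Both group means, 5.26 ± 0.11 in NSCPs against 5.28 ± 0.04 in SKPs (SD over 3 arrays each), lay below 5.32 and above 4.87. The difference was -0.03 (95% interval -0.29 to 0.24, limma adjusted p = 0.873).

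**Figure D2:**
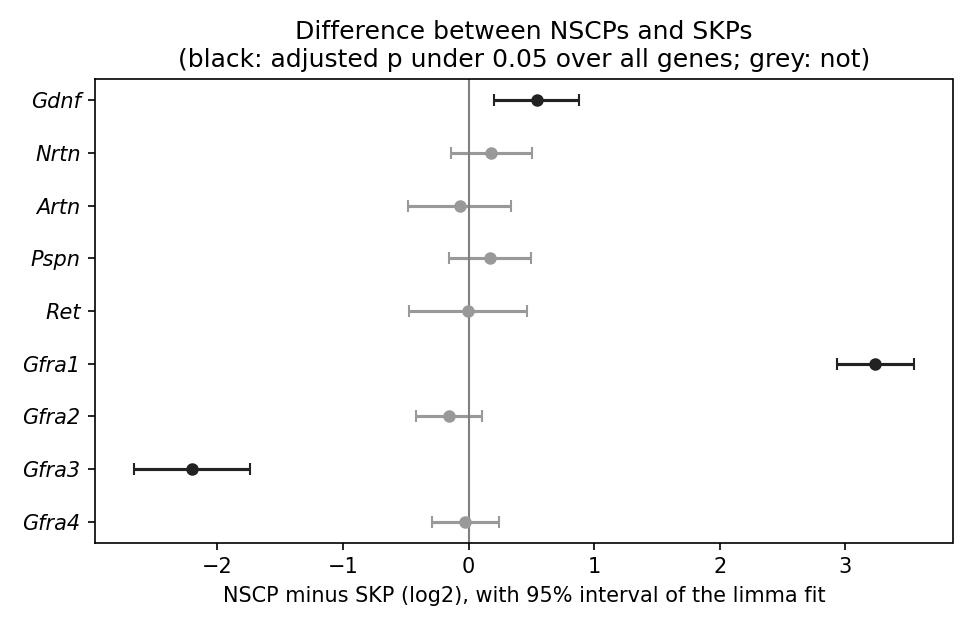
NSCP minus SKP difference on the log2 scale (horizontal axis) with the 95% interval of the limma fit for each gene (vertical axis). Gfra1 at 3.24 and Gfra3 at -2.20 stand apart on opposite sides of 0, Gdnf lies at 0.54, and the intervals of the other 6 genes include 0.

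The upstream sequences of the 3 genes that were called are shown so that their promoters can be compared. They are the 250 bases before each gene's start in RefSeq (build GRCr8), written 5′ to 3′ on the strand of the gene. Capitals mark matches on either strand to the TATA box letters TATAAA, to the letters TGACG from the cyclic AMP response element, shown because forskolin in the NSCP medium raises cyclic AMP, or to GGGCGG, the GC box bound by Sp factors.
Gfra1, chr1:267555812-267556061, minus strand: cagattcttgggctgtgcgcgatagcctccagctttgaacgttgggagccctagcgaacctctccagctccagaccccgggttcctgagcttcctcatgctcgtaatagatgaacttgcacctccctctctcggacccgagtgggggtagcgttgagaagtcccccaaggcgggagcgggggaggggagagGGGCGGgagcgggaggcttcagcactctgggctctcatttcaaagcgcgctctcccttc
Gfra3, chr18:26600226-26600475, minus strand: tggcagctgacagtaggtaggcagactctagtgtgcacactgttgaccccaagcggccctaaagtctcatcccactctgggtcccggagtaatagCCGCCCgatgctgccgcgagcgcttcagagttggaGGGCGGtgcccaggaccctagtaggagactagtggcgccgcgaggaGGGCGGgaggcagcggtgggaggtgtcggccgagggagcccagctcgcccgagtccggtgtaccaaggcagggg
Gdnf, chr2:58621077-58621326, plus strand: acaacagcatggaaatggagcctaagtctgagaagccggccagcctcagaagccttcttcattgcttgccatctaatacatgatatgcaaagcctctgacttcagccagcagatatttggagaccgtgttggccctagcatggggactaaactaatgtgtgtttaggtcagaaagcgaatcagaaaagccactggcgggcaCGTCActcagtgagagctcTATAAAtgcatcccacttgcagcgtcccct

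The co-receptor genes that moved in opposite directions have upstream windows of the same broad kind. In Gfra1 62% of the bases are G or C and in Gfra3 66%, against a median of 51.2% over all promoters, and neither holds a TATAAA. Gfra1 has 1 GC box, starting 59 bases before the gene's start, and Gfra3 has 3, starting 155, 120 and 74 bases before it. Gdnf, at 49.6% G or C, has a TATAAA that starts 30 bases before the gene's start and a TGACG match (letters CGTCA on the strand shown) that starts 49 bases before it. Promoter windows were found for 8 of the 9 members, Gfra2 being named only. Among these 8, TATAAA occurs in 1, TGACG in 2 (Gdnf and Artn) and GGGCGG in 3 (Gfra1, Gfra3 and Artn). The shares among all 33469 promoter windows are 12.9%, 18.2% and 30.5% in that order. The SOX core letters ACAAAG and ACAATG, looked for because Sox10 is a known regulator of Ret, occur in none of the 8 windows and in 16.3% and 11.1% of all windows. The AP-1 letters TGACTCA and the Egr letters GCGTGGGCG occur in none of the 8 and in 4.05% and 0.478% of all, and the E-box CANNTG, in which N is any base, occurs in 6 of the 8 and in 65.5% of all. Both strands were searched for every motif, and overlapping matches were counted, such as the 2 GC boxes of Artn that share 1 base. A match is a run of letters and not a measured binding site.

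The balance between co-receptor genes was compared within each array, since a single offset of an array's log2 values cancels in a difference of 2 genes. Quantile normalization, used for the deposited values, acts by intensity and need not cancel between genes of unlike values. Gfra1 minus Gfra3 was 5.37, 5.10 and 5.69 in NSCPs and 0.32, -0.40 and -0.09 in SKPs. The zero of such a difference has no meaning across probe sets. Its shift, 5.44 higher on the log2 scale in NSCPs, is the difference found for Gfra1 less that found for Gfra3. The shift of every pair restates the differences of its 2 genes in this way and is no separate result. Gfra1 minus Gfra2 was 0.72, 0.74 and 0.99 in NSCPs and -2.36, -2.58 and -2.78 in SKPs, a shift of 3.40. Gfra2 minus Gfra3 shifted by 2.05. Gfra1 minus Gfra4 shifted by 3.26 and Gfra3 minus Gfra4 by -2.18, but Gfra4 was within the background of 5.32 in both cultures, so these shifts restate the differences of Gfra1 and Gfra3 and give no balance with Gfra4. In these 5 pairs the arrays did not overlap and the two-sided exact permutation test gave p = 0.1, the smallest that 3 against 3 arrays allow, with a Benjamini-Hochberg adjusted p of 0.12 over the 6 pairs. The design therefore cannot reach 0.05 by this test. For Gfra1 minus Gfra3 the separation was fixed beforehand, since the arrays of each gene were already apart in opposite directions. Gfra2 minus Gfra4 shifted by -0.13 with overlapping arrays (exact p = 0.5, adjusted p = 0.5).

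**Figure D3:**
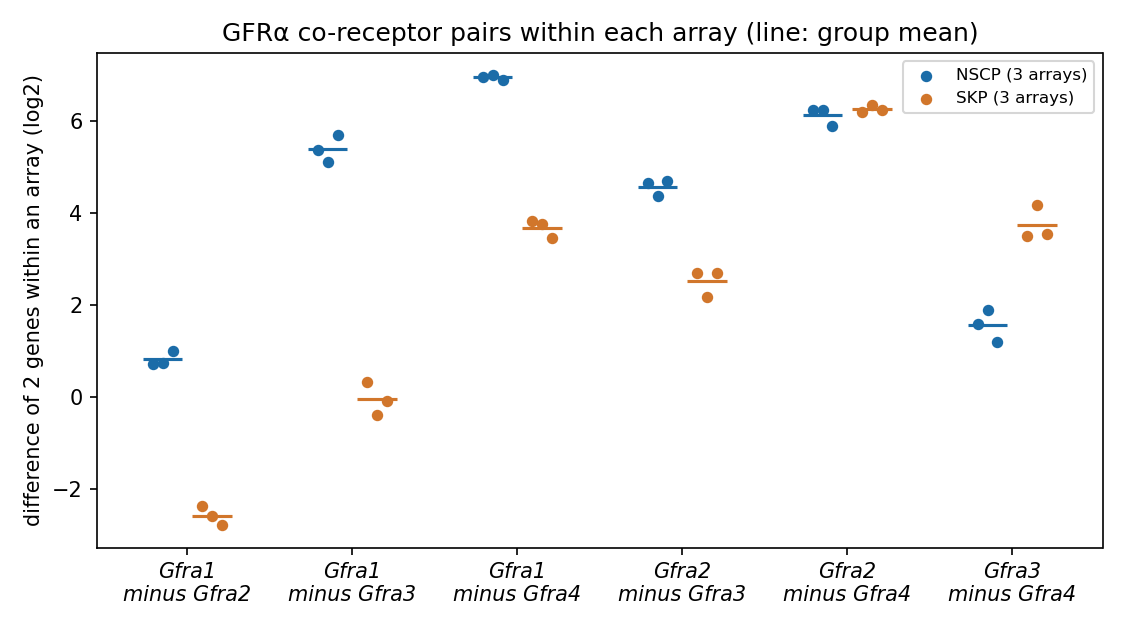
Difference between 2 co-receptor genes within each array on the log2 scale (vertical axis) for the 6 pairs (horizontal axis); points are arrays, NSCP left of SKP in each pair, and lines are group means. The NSCP and SKP points are apart in 5 pairs, most in Gfra1 minus Gfra3 with a shift of 5.44, and overlap in Gfra2 minus Gfra4; Gfra4 itself was within the background of 5.32 in both groups.

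Receptors other than RET were examined because Ret was within background. Of 13 measured genes of other GDNF receptors and modulators of the RET complex, 5 were higher and 4 lower in NSCPs. That is 69.2% called against 43.7% of all genes, with a median difference of 0.23. All genes include 4941 within background in both groups and this list 1, so the 2 shares are of unlike sets. Ncam1, which encodes the RET-independent receptor for GDNF and is named here after its values were seen, had log2 values of 11.66 ± 0.04 in NSCPs against 10.78 ± 0.10 in SKPs (SD over 3 arrays each), a difference of 0.88 (SE 0.12, limma adjusted p = 3.39e-04). Sdc3, which encodes the heparan sulfate proteoglycan syndecan-3 that binds GDNF in the matrix, had 11.60 ± 0.19 in NSCPs against 9.29 ± 0.22 in SKPs (SD over 3 arrays each), a difference of 2.31 (SE 0.16, limma adjusted p = 6.84e-06). Both genes were well above background in the 2 cultures and were higher in NSCPs, as was Gfra1. Other called genes of the list, also named after their values were seen, went both ways. Gdf15, Sorl1 and Cdh4 were lower in NSCPs (differences -1.11, -0.80 and -0.66) and Ptprf was higher (1.53). The adhesion genes L1cam and Cdh2 were higher in NSCPs by 4.92 and 2.31, and Lrig1, whose product restrains RET and other receptor kinases, was lower by a difference of -1.54. The SD of Cdh2 was 0.08 over the NSCP arrays and 0.99 over the SKP arrays. Gfral, the gene of a distant relative that binds GDF15 in the brainstem, was within background in both cultures at 2.92 in NSCPs and 2.98 in SKPs.

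The adaptors and effectors that carry the RET signal inside the cell serve many receptors, and all 27 were above background in both groups. Of these 10 were higher and 11 lower in NSCPs, 77.8% called against 43.7% of all genes, and the list's median difference was -0.02. All genes include 4941 within background in both groups, of which 769 were called, so the 2 shares are of unlike sets. Those with the largest differences were Irs1, an adaptor best known from insulin signalling (-2.43), Plcg1, the gene of phospholipase C gamma (-2.16), Rap1gap (1.89) and Shc1, which encodes an adaptor of phosphorylated tyrosines (-1.62).

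Genes known as RET targets in the ureteric bud of the mouse kidney are also targets of FGF and EGF receptor signals, and FGF2 and EGF were in the SKP medium. Of 10 measured, 2 were higher and 5 lower in NSCPs, 70% called against 43.7% of all genes, with a median difference of -0.31. All 10 were above background in both groups, so here too the shares are of unlike sets. Mmp14, the gene of a membrane-bound matrix protease, differed by -2.74, the feedback inhibitor gene Spry1 by -2.00 and the ETS transcription factor gene Etv4 by -1.35, all lower in NSCPs. Met, the gene of the HGF receptor, was higher by 1.19. Spry2, a relative of Spry1 named here after its values were seen, was higher by 0.56 (limma adjusted p = 0.0296). Without NSCP replicate 1, NSCP replicate 2 or SKP replicate 3 the higher count was 1. Whether any receptor signal moved these genes was not tested.

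Of 9 measured genes of transcriptional regulators of Ret, 3 were higher in NSCPs and the other 6 did not pass, with a median difference of 0.32. That is 33.3% called beside 43.7% of all genes, whose median difference was 0.14. A list of 9 genes is too small to tell these shares apart. Sox10, which encodes a factor of neural crest and glia, was higher by 3.10 (10.52 ± 0.21 in NSCPs against 7.42 ± 0.22 in SKPs, SD over 3 arrays each) and so was Rarb, the gene of a retinoic acid receptor, by 0.89. Phox2a, an autonomic neuron factor gene, was 0.36 higher with both group means close to background. The Ret signal at background neither shows nor excludes a difference in Ret expression between the cultures.

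Regulators of Gdnf and Artn expression, known mostly from kidney and limb of the mouse, were higher in NSCPs in 3 and lower in 6 of 14 measured members. That is 64.3% called against 43.7% of all genes, with a median difference of -0.11. Robo2, the gene of a SLIT receptor that restricts the Gdnf domain in the kidney, was lower by a difference of -4.49 (5.51 ± 0.06 in NSCPs against 10.01 ± 0.26 in SKPs, SD over 3 arrays each). Runx2 and Bmp4 differed by -2.75 and -2.46, Bmp4 with an NSCP mean within background. Shh, the gene of a hedgehog ligand, was higher in NSCPs by 3.62. The higher count was 1 without NSCP replicate 1 or 3 or SKP replicate 1 or 3.

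**Figure D4:**
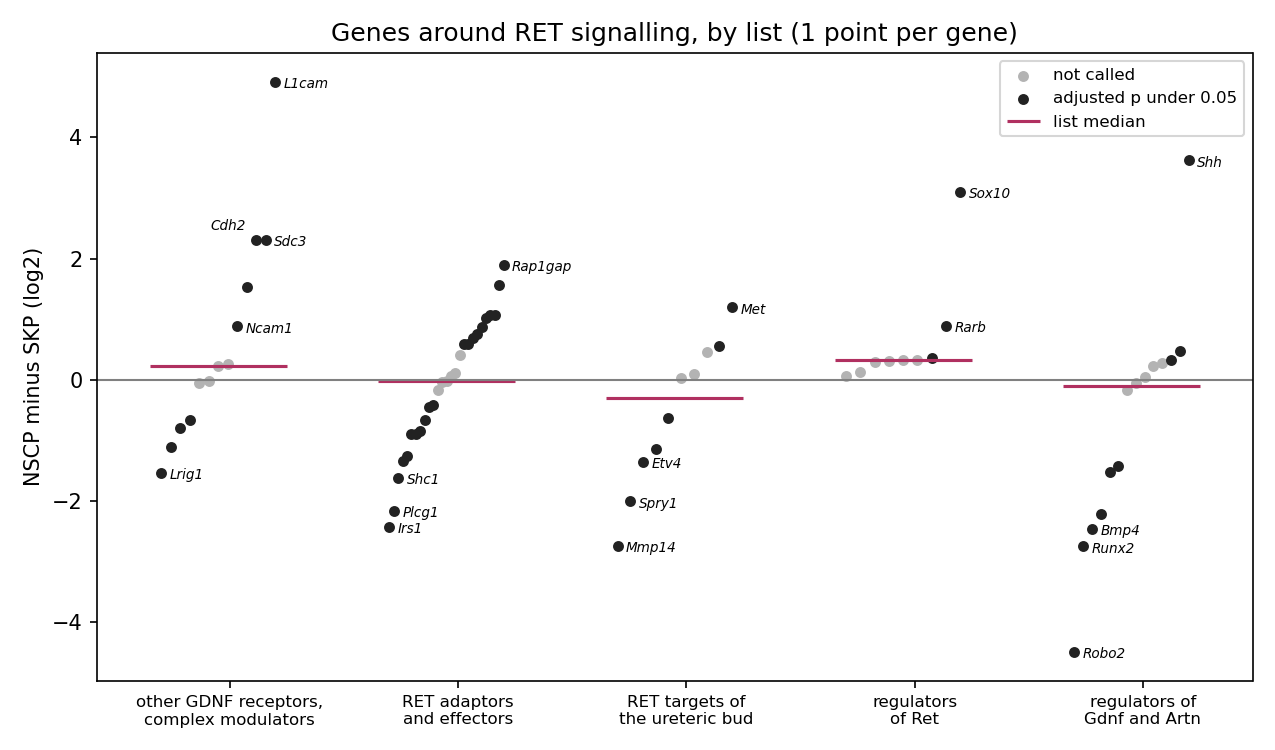
NSCP minus SKP difference on the log2 scale (vertical axis) of each measured gene in the 5 lists around RET signalling (horizontal axis); black points were called, grey points were not, and the line is the list median. Differences run both ways in most lists, from Robo2 at -4.49 to L1cam at 4.92, while the medians stay between -0.31 and 0.32.

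Neurons are the best known site of Ret expression, and nerve cultures could carry neuronal RNA. Of 12 neuron markers 4 were higher and 2 lower in NSCPs, 50% called against 43.7% of all genes. The intermediate filament genes Nefl and Nefm were higher by 5.04 and 4.65 and the tubulin gene Tubb3 by 2.80, while 5 markers were within background in both groups, namely Elavl4, Syt1, Isl1, Prph and Th, named after their values were seen. Elavl4 was 1 of the 2 lower (difference -1.30, limma adjusted p = 0.00141), a call between values within background. The other was Stmn2, also named after its values were seen (difference -0.71, limma adjusted p = 0.00216). Its mean was 5.71 in SKPs, above background, and 5.00 in NSCPs, within it. Of 6 endothelial markers 2 were higher (33.3% called) and 5 were within background in both groups. The angiopoietin receptor gene Tek was higher by 1.91 (limma adjusted p = 9.46e-06), above background in NSCPs and within it in SKPs, and Emcn was higher by 0.47 between values within background. Pericyte and smooth muscle markers were lower in NSCPs in 4 of 6 (66.7% called), with a median difference of -0.92. Cdh1, 1 of 5 keratinocyte markers, was higher (20% called). Melanocyte markers had 2 higher and 2 lower among 7 (57.1% called), and perineurial and endoneurial fibroblast markers 1 higher and 4 lower among 8 (62.5% called).

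The genes whose pattern was most like that of a called member were found by the Euclidean distance between log2 values centred on each gene's mean over the 6 arrays. That measure is set mainly by the size of the difference between the groups. Genes with provisional symbols (such as LOC and RGD) and olfactory, vomeronasal and microRNA genes were left out of the search. Closest to Gfra1 were Sh3tc2, a Schwann cell gene mutated in an inherited demyelinating neuropathy (distance 0.285, difference 3.23), Cnp, which encodes a myelin enzyme (0.329, difference 3.28) and the plexin gene Plxnb3 (0.354, difference 3.16). Closest to Gfra3 were the glycine transporter gene Slc6a9 (distance 0.279, difference -2.05), Neo1, the gene of a receptor for netrins and repulsive guidance molecules (0.279, difference -2.23) and the Fc receptor gene Fcgrt (0.315, difference -2.44). Nearest to Gdnf were the RNA ligase gene Rtcb (0.0746), Slc16a13 (0.0801) and the homeobox gene Otp (0.0839), with differences of 0.59, 0.57 and 0.49.

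The arrays of a kind were alike across all genes (Pearson correlations 0.984 to 0.993 within groups and 0.872 to 0.888 between them), and from 67.3% to 69.1% of genes lay above 5.32 on each array. Of the 9 members 7 had their highest NSCP value in replicate 2, as had 43.2% of all genes, and leaving that replicate out changed no call of a member.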

How the data were processed

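RNA of 3 NSCP and 3 SKP isolates was hybridised to expression arrays, 1 each, from cDNA made with 400 ng of total RNA, per the labels' protocols. The authors used oligo and RMA to make the deposited log2 values, 1 for each probe set on each array (background correction, quantile normalization, probe summary), per the submitters' processing notes, which give no versions. Quantile normalization would hide a shift of all genes in 1 group. The number of arrays limits the precision; no source used here gives array batches or scan dates.

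Of 36685 probe sets, 18511 had 1 gene symbol, 575 several and 17599 were unnamed here. Symbols were updated by Entrez ID through RefSeq (18394 matched). For the 291 genes with several probe sets the brightest was kept, leaving 18166. No filter or further normalization was applied. NSCPs minus SKPs was fitted with limma 3.58.1 in R 4.3.3 (lmFit, eBayes, two-sided) and p-values were adjusted by Benjamini-Hochberg over the whole set of genes. The script was tested on simulated data. Co-receptor pairs were compared with exact permutation tests. Figures used matplotlib 3.10.9.

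The members and gene lists were chosen with earlier results of these data known, so list counts are descriptions. Named genes are the 9 members, up to 4 called genes per RET list and up to 3 per marker list with the largest difference, and the 3 most similar genes per called member with a group mean above background. Promoters come from RefSeq (GRCr8). The annotated span of Gdnf and of Gfra1 each overlaps a noncoding RNA gene, and that of Pspn overlaps Alkbh7; no source used here says whether the probes separate them. Alternatives left out each array, added the replicate number as a block, and changed the normalization, dim-gene filter, probe set rule, adjustment, prior, weights, threshold and background percentile.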

Additional observations from a re-analysis of the deposited data

How the results depend on the processing

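Gfra1 and Gfra3 kept their direction and their call under all 16 alternatives, with differences of 3.13 to 3.39 and of -2.35 to -2.01 on the log2 scale. Nrtn, Artn, Pspn, Ret, Gfra2 and Gfra4 passed under none of the alternatives that tested them; the dim-gene filters removed Ret and Gfra4. Gdnf stayed higher but lost its call without SKP replicate 1 (limma adjusted p = 0.0576) and at an adjusted p under 0.01 (0.0167), which left 1 member higher in each case; its adjusted p ran from 0.00457 to 0.0576. With 1 array left out, 1 to 2 members were higher and 1 lower, and 3495 to 4250 genes were higher and 2846 to 3267 lower. The shifts between co-receptor genes then ran from 3.29 to 3.50 for Gfra1 minus Gfra2, 5.27 to 5.63 for Gfra1 minus Gfra3, 3.15 to 3.33 for Gfra1 minus Gfra4, 1.87 to 2.15 for Gfra2 minus Gfra3, -0.19 to -0.02 for Gfra2 minus Gfra4 and -2.34 to -1.96 for Gfra3 minus Gfra4. At an adjusted p under 0.01, 2886 genes were higher, in place of 4569. With median centring 5634 genes were higher and 3114 lower, and with array weights 6328 were higher and 4098 lower. The share of all genes called, 43.7% in the main fit, thus moved both ways with the setting. The background level was 4.87 at the 90th and 6.47 at the 99th percentile of the receptor genes; above 4.87 lay all 9 members in both groups, Ret and Gfra4 included, and above 6.47 lay 4 in NSCPs and 3 in SKPs.

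The replicate number as a block gave 4378 genes higher and 3303 lower and changed no call of a member (limma adjusted p = 1.65e-05 for Gfra1, 4.27e-05 for Gfra3 and 0.0134 for Gdnf). Cultures of the same number deviated together only weakly (r = 0.0372, 0.0501 and 0.0283 across genes), yet every culture correlated best with its own number. These values do not settle whether the numbers mark pairs. The main fit used no pairs, and the block is given as its alternative.

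Small list counts moved more, and apart from genes that a filter removed the cause was not tested. RET targets had 1 higher in place of 2 with adjustment over all probe sets, with array weights and at 0.01, and 1 to 2 with an array left out (1 without NSCP replicate 1 or 2 or SKP replicate 3). Regulators of Ret had 6 higher with array weights in place of 3. Regulators of Gdnf and Artn had 1 higher in place of 3 with the block, with adjustment over all probe sets and at 0.01, and 1 to 2 with an array left out (1 without NSCP replicate 1 or 3 or SKP replicate 1 or 3). Keratinocyte markers had 0 to 2 higher with an array left out (2 without NSCP replicate 1, 0 without NSCP replicate 2 or 3), 2 with the block, renewed quantile normalization or array weights, 3 with median centring, and 0 with adjustment over all probe sets and at 0.01 by limma. At an unadjusted p under 0.05, 0 and 1 were higher without NSCP replicate 2 and 3, 2 over all probe sets and 3 in the whole set. Perineurial markers had 2 higher in place of 1 with either renewed scaling, either filter or array weights. Under the filters by receptor background and by the median, neuron markers had 1 and 0 lower and endothelial markers 1 and 1 higher (1 also at 0.01). Melanocyte markers then had 1 and 1 lower, and 0 higher under the filter by the median. These filters test fewer genes: called markers with dim values, such as Elavl4 (3.04 in NSCPs and 4.33 in SKPs) and Emcn (5.06 and 4.59), were removed and did not lose a call.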
